A study of Mus musculus with 5 samples.

Results

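The regions described here lie in 2 windows of the mouse genome, one around Tcf7 and one around Lef1, the genes of the T cell factors TCF1 and LEF1. They were chosen by position in build mm9, as every region of 3 deposited lists that overlaps chr11:52030001-52150000 (the Tcf7 window, 120 kb) or chr3:130600001-130950000 (the Lef1 window with its upstream sequence, 350 kb). The windows held 123 of the 56796 regions in all, with 55 in the Tcf7 window and 68 in the Lef1 window. The Tcf7 window was picked because it holds the highest-scoring DNaseI region, so its DNaseI scores are given as a description.

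All samples came from double positive thymocytes, the immature T cells of the thymus that carry both CD4 and CD8, of C57/BL6 mice aged 4 to 6 weeks, and no other genotype or treatment is labelled. The series describes 5 samples, and 3 of them were analysed here: chromatin immunoprecipitation for HEB, chromatin immunoprecipitation for TCF1, and DNase I digestion, which marks open chromatin. The samples for H3K9me3 and H3K27ac were not analysed here. Each assay had 1 sample, so no value has a biological error and no difference between assays or loci was tested. Sequencing depth is unknown. The cell type could not be checked against marker genes, since no expression was measured.

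TCF1 and LEF1 are closely related HMG-box proteins that bind the same short sequence, of the form CTTTGA or CTTTGT, and bend the DNA there. They can recruit beta-catenin as a coactivator or TLE proteins as corepressors. TCF1 is required from the earliest steps of T cell development, and both factors act together in double positive thymocytes. HEB, encoded by Tcf12, is an E protein that binds E-boxes (CANNTG) as a dimer and is needed for the passage through the double positive stage. The HEB and TCF1 lists therefore show where a TCF/LEF factor and an E protein were recovered near the genes of the TCF/LEF factors themselves.

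RefSeq (GRCm38.p6, a later build than the deposited lists) places Tcf7 on the minus strand of chromosome 11 between Skp1 and Vdac1, and Lef1 on the plus strand of chromosome 3 between Rpl34 and Hadh, counting protein-coding genes by position of their start. Tcf7 spans 36857 bp and Lef1 114061 bp there. Positions were not moved between builds, so no deposited region was assigned to a gene, a promoter, an exon or an intron. Both windows are longer than the gene they are named for and may hold parts of neighbouring genes. RefSeq gives start sites for both genes, and 3 of them are printed to show which TCF/LEF and E-box letters they hold. Each sequence runs from 250 bases before to 50 bases after a start site, 5′ to 3′ on the strand of the gene, with matches on either strand in capitals, whether to CTTTGA, to its relative CTTTGT or to the E-box CANNTG.
Tcf7, most upstream start, GRCm38.p6 chr11:52282965-52283264, minus strand: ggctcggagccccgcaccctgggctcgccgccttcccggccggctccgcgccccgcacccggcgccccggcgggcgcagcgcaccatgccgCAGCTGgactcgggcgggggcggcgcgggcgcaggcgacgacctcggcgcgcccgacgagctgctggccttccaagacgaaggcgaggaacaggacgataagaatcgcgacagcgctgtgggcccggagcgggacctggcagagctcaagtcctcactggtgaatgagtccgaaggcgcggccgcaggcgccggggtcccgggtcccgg
Lef1, most upstream start, GRCm38.p6 chr3:131110047-131110346, plus strand: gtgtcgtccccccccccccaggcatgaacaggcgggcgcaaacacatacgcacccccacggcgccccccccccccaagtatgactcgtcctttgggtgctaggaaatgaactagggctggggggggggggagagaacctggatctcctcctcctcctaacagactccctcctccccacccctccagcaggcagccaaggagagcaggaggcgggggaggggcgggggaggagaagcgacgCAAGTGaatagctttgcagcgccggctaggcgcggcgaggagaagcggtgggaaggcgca
Lef1, most downstream start, GRCm38.p6 chr3:131156044-131156343, plus strand: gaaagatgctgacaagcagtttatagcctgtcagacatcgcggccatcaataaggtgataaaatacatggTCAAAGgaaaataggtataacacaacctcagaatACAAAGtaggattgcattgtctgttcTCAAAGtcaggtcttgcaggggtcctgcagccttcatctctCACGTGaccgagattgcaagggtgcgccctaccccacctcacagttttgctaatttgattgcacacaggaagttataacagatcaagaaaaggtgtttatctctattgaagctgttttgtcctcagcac

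The table holds 2 start sites for Tcf7 and 4 for Lef1. Of these 6 sequences, the most downstream Lef1 start alone held TCF/LEF letters, with 2 matches to CTTTGA and 1 to CTTTGT. Among 32851 RefSeq promoter sequences of the same length, 16.0% held CTTTGA, 18.7% held CTTTGT and 1.73% held CTTTGA at least 2 times. Each of the 6 held at least 1 CANNTG, a motif found in 72.3% of all promoters. In the most upstream Tcf7 sequence, the marked CANNTG closely follows an atg whose reading frame holds no stop up to the end. Much of that sequence may therefore be coding, which was not checked, and its CANNTG is not read as a promoter site. These matches describe letters only, and the missing matches describe only these windows of 300 bases. The sequence under the deposited regions was not analysed here.

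Open chromatin filled a large part of the Tcf7 window. It held 48 DNaseI regions that covered 34.1% of the 120 kb, and without its widest region the coverage was 27.5%. On a grid of 21443 windows of 120 kb in phase with it, the mean coverage was 0.844% and no window had a higher coverage. Its count of 48 regions was the fourth highest of the grid, whose maximum was 57. The Lef1 window held 56 DNaseI regions that covered 8.68% of its 350 kb. Among 7368 windows of that length the mean coverage was 0.842%, 49 other windows had a higher coverage, and 58 held more DNaseI regions. Only 8534 of the 21443 windows of 120 kb and 4032 of the 7368 windows of 350 kb held any DNaseI region. Gaps in the assembly were not masked, so the grid means and medians include empty windows. These placements are descriptions, since the windows were not picked at random.

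**Figure D1:**
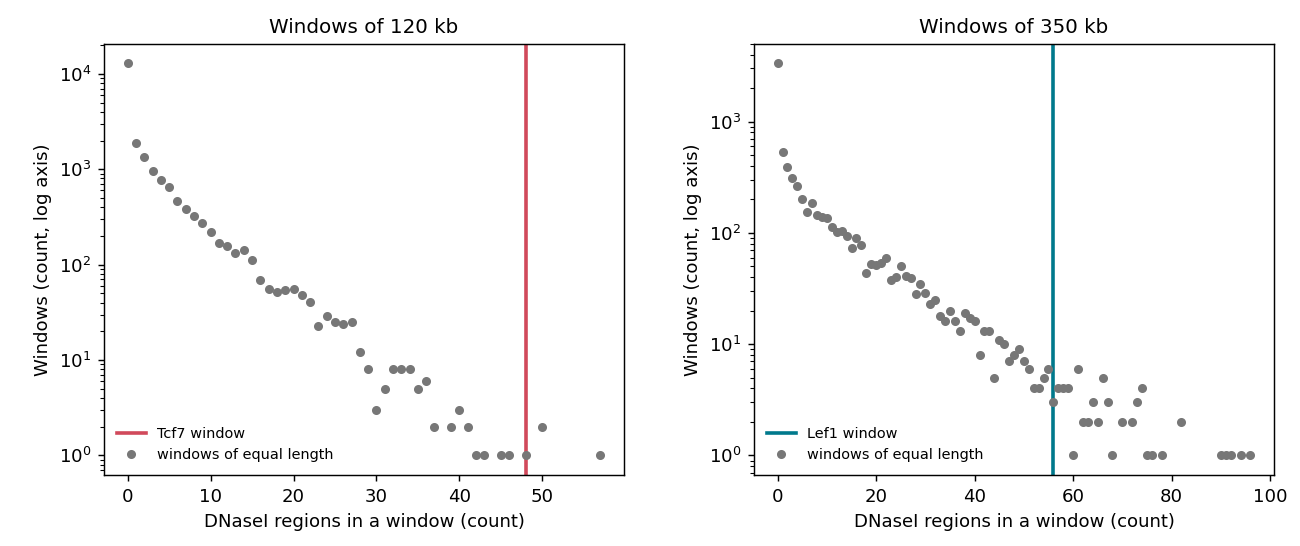
Number of DNaseI regions per window (x axis) against the number of windows with that count (y axis, log) on grids of 120 kb (left) and 350 kb (right), with a line at the Tcf7 or Lef1 window. The Tcf7 window holds 48 regions and the Lef1 window 56, both far out in the upper tail of grids whose medians are 0 and 1.

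Single open regions ran from 201 to 7846 bp and from scores of 8 to 871 in the Tcf7 window, and from 201 to 2208 bp and 8 to 186 in the Lef1 window, against 180 to 7846 bp and 8 to 871 in the list. Each score is the authors' own whole number, with no stated unit, and was ranked only within its list. DNaseI scores had a median of 21 (quartiles 11 and 64.25) in the Tcf7 window and 20 (10.75 and 39) in the Lef1 window, against 16 (10 and 33) in the whole list. Median widths were 382.5 bp in the Tcf7 window and 388 bp in the Lef1 window, against 315 bp in the list. Small sites were also present. Regions of exactly 201 bp made up 12 of 48 in the Tcf7 window and 14 of 56 in the Lef1 window, or 25% of each, and 26.4% of the whole list. Scores of 100 or more were found for 9 of 48 regions of the Tcf7 window and 6 of 56 of the Lef1 window, against 3.14% of the list, and nothing is read from this because DNaseI scores chose the Tcf7 window.

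The highest-scoring region of the Tcf7 window, chr11:52088379-52096224, was also the first of all 48320 DNaseI regions by score (871) and by width (7846 bp). The next widths in the list were 6778 and 5616 bp. No other region came within 10% of its width, so its score could not be set beside those of like width. It was 241 bp from the open region before it, chr11:52086385-52088137 (score 136, 1753 bp), and 828 bp from the one after it, chr11:52097053-52098280 (score 100, 1228 bp). It alone made up 19.2% of the open bases of the window.

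The other regions among the 5 highest scores of the Tcf7 window had scores of 233, 164, 155 and 136. The region with score 233, chr11:52126472-52128493 (2022 bp), had a higher score than 95.2% of the 231 other regions within 10% of its width. The region with score 164, chr11:52080728-52082822 (2095 bp), carried neither factor, and the region with score 136 named above carried neither. The region with score 155, chr11:52122766-52125416 (2651 bp), scored above 25.6% of 90 regions of like width. A wide region outside the 5, chosen after its value was seen, had the opposite pattern to the 233 region. It was chr11:52066328-52069106, the second widest of the window at 2779 bp, and its score of 114 was below all 69 other regions of like width, whose median was 194.

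Open regions of the Tcf7 window were packed into few runs. Regions at most 5 kb apart were joined into a run, which gave 5 runs in this window. The longest, chr11:52062328-52113699, joined 30 open regions over 51.4 kb, of which 54.7% was open, and it included the widest region. By number of regions it ranked ninth, and by span twelfth, of the 25342 runs of the list. A run of 9 regions followed, chr11:52118849-52135580, over 16.7 kb with 50.1% open. The remaining runs had 4, 1 and 4 regions. The median gap between neighbouring open regions was 719 bp in the Tcf7 window, against 5843 bp over the whole list.

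**Figure D2:**
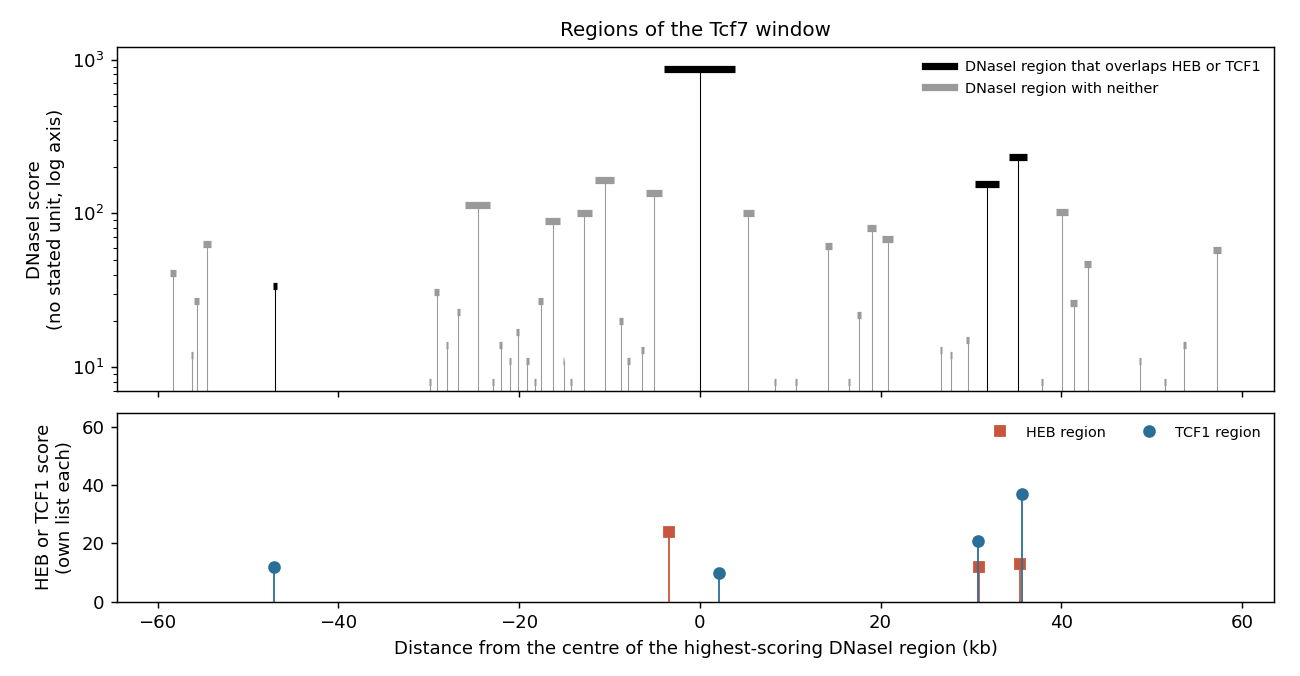
DNaseI regions of the Tcf7 window (upper panel, each drawn to scale at its score on a log axis, black where it overlaps HEB or TCF1 and grey where it overlaps neither) and HEB and TCF1 regions at their scores (lower panel, each from its own list), by distance in kb from the centre of the highest-scoring DNaseI region. The widest region has a score of 871, with HEB and TCF1 centres 5.48 kb apart. Both factors also lie in the regions with scores of 155 and 233, and they overlap only in the one with score 155.

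HEB was found at 3 places of the Tcf7 window and TCF1 at 4, and all 7 lay in open regions, against 34.5% of HEB regions and 84.9% of TCF1 regions in the whole lists. HEB was on 3 of the 48 open regions (6.25%), against 3.43% of the list, TCF1 was on 4 (8.33%), against 6.10%, and both were on 3 (6.25%), against 1.28%. Together they fell on 4 open regions, or 8.33% (95% Wilson interval 3.29 to 19.6%, counting error only), close to the 8.25% of all DNaseI regions that overlap a factor. The 3 open regions with both had scores of 155 or more, among 9 of the window with 100 or more. In the list, 18.1% of DNaseI regions with a score of 100 or more carried both. All 3 HEB regions shared their open region with TCF1. Of all 4930 HEB regions, 1701 lay in an open region, and 645 of these in one that also overlapped TCF1.

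In the widest region the factors stood apart. The HEB region, chr11:52088836-52089036, had a score of 24, higher than 91.5% of the HEB list, and its centre lay 557 bp from the start of the open region. The TCF1 region, chr11:52094328-52094510, had a score of 10, higher than 31.2% of the TCF1 list, and its centre lay 77% of the way along. Their centres were 5.48 kb apart. One open region thus counts as shared by both factors although their sites were separated by 5291 bp.

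In the run of 9 open regions after it the factors lay close together. In the open region with score 155 the HEB region chr11:52123112-52123312 (score 12, above 58.4% of its list) overlapped the TCF1 region chr11:52122965-52123147 (score 21, above 92.1% of its list) by 36 bp. Both lay near the start of that open region, with the HEB centre 16.8% and the TCF1 centre 10.9% of the way along.

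In the open region with score 233 the HEB region chr11:52127575-52127775 (score 13, above 66.9%) and the TCF1 region chr11:52127869-52128051 (score 37, above 99.2%) did not touch, and 93 bp lay between them. The TCF1 pair of this run had centres 4.90 kb apart and the HEB pair 4.46 kb apart. The TCF1 scores of 21 and 37 thus stood beside HEB scores of 12 and 13, whereas the highest HEB score of the window, 24, shared an open region with its lowest TCF1 score, 10.

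The fourth TCF1 region of the window, chr11:52045094-52045276 (score 12, above 60.5%), lay far from these. Its open region, chr11:52045063-52045489, was 427 bp wide with a score of 34, and its gaps to the next open regions were 6832 and 16838 bp. The nearest HEB centre was 43.8 kb from this TCF1 region. The long run of 30 open regions thus held 1 HEB and 1 TCF1 region, both in its widest member. Its other open regions carried neither factor, as did 91.8% of all DNaseI regions, so nothing is read from this.

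The Lef1 window was more loosely arranged. Its 56 open regions formed 21 runs, 7 of them of a single region, with a median gap of 2378 bp. The largest run, chr3:130857714-130866316, had 7 open regions, none above a score of 47. They carried neither factor, as did 91.8% of all DNaseI regions. The 5 highest DNaseI scores were 186, 150, 147, 131 and 129, close to each other. Against regions within 10% of their width, these scores were higher than 71.5%, 65.4%, 54.2%, 89.6% and 91.8%, in the same order.

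HEB was found at 4 places of the Lef1 window and TCF1 at 8. All 4 HEB regions and 7 of the 8 TCF1 regions overlapped an open region. HEB was on 4 of the 56 open regions (7.14%), TCF1 on 6 (10.7%) and both on 3 (5.36%), against the same shares of the list (3.43%, 6.10% and 1.28%). Together they fell on 7 open regions, or 12.5% (Wilson interval 6.19 to 23.6%), against 8.25% of the list. The interval counts neighbouring regions of 1 sample as independent, so nothing is read from it. The 3 open regions with both had scores of 129 or more, among 6 of the window with 100 or more. In the list, 18.1% of DNaseI regions with a score of 100 or more carried both. Of the 5 highest-scoring open regions, 4 carried a factor, and the exception was chr3:130721578-130723587 (score 147, 2010 bp).

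The 3 open regions with both factors lay at the low-coordinate end of the window, and each was in a different run. The first was chr3:130602938-130604797 (score 150, 1860 bp). Its HEB region chr3:130604310-130604510 (score 13, above 66.9%) and its TCF1 region chr3:130604388-130604570 (score 38, above 99.4%) shared 123 bp, the largest overlap in either window, with centres 69 bp apart.

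The next, 34.9 kb further by the centres of the HEB regions, was chr3:130638176-130640383, the highest-scoring and widest open region of the window (score 186, 2208 bp). It carried 1 HEB and 2 TCF1 regions, a combination of at least 1 HEB and at least 2 TCF1 regions that 35 DNaseI regions had in the whole list. The HEB region chr3:130639225-130639425 (score 15, above 73.1%) overlapped the TCF1 region chr3:130639364-130639546 (score 23, above 94.8%) by 62 bp. The other TCF1 region, chr3:130639978-130640160, had a score of 58, the second highest of all 3546. Its centre lay 614 bp from the neighbouring TCF1 centre and 744 bp from the HEB centre, and it did not meet HEB.

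The last of these was chr3:130649667-130650852 (score 129, 1186 bp). Its HEB region chr3:130650358-130650558 (score 24, above 91.5%) and its TCF1 region chr3:130650264-130650446 (score 16, above 81.3%) shared 89 bp. Here the HEB score stood higher in its list than the TCF1 score did, the reverse of the other places where both factors overlapped. In each of these 3 open regions the factors' centres lay past the middle of the region, between 52.1% and 85.8% of the way along.

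The 2 highest TCF1 scores of the Lef1 window, 58 and 38, lay in this stretch. In a class set after the values were seen, 30 TCF1 regions of the list (0.846%) had a score of 37 or more, and 3 of them lay in these windows. Only 2 of the 30 had another of the 30 within 50 kb, and those were the Lef1 regions with scores of 38 and 58. The distance of 50 kb was likewise not a planned setting, so this only describes these regions.

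**Figure D3:**
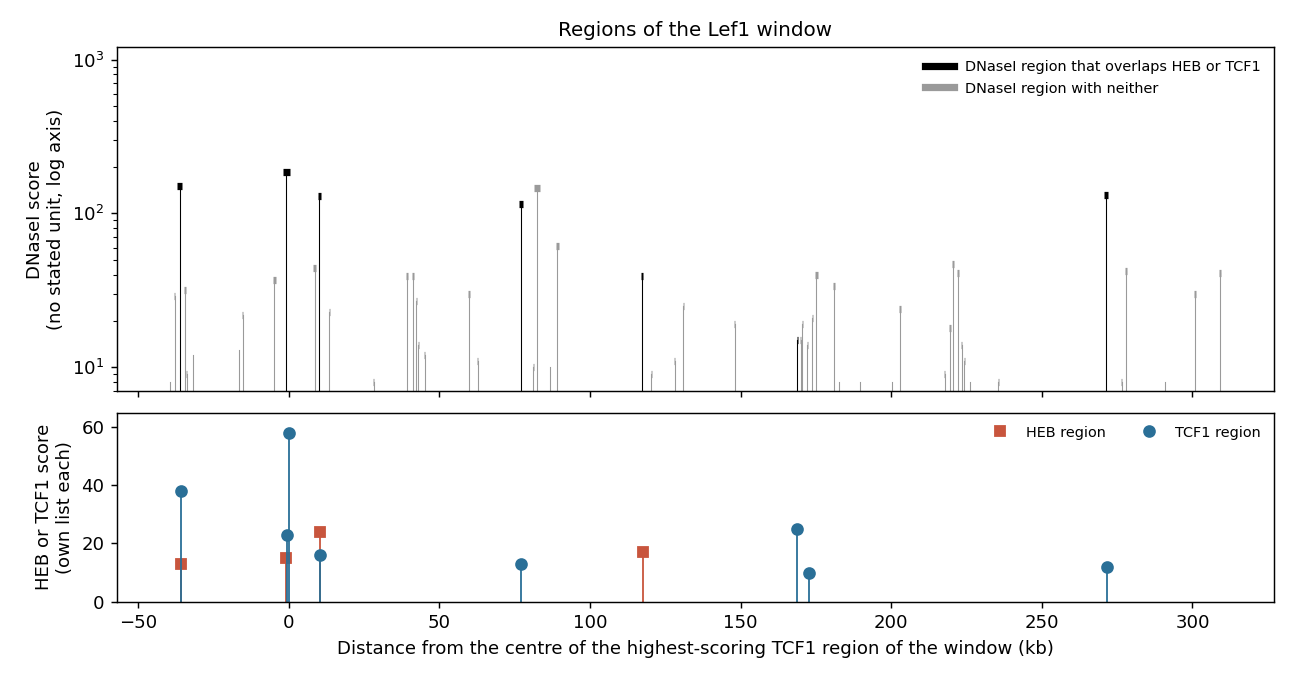
DNaseI regions of the Lef1 window (upper panel, each drawn to scale at its score on a log axis, black where it overlaps HEB or TCF1 and grey where it overlaps neither) and HEB and TCF1 regions at their scores (lower panel, each from its own list), by distance in kb from the centre of the highest-scoring TCF1 region of the window. The 3 places with both factors lie at the left, and the remaining factor regions have no centre of the other factor within 1 kb.

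The other factor regions of the Lef1 window had no centre of the other factor within 1 kb. TCF1 without HEB was found in chr3:130716693-130717797 (score 116, 1105 bp), where the TCF1 region chr3:130717253-130717435 had a score of 13, above 67.4% of its list. It was also found in chr3:130910779-130912095 (score 131, 1317 bp), where the TCF1 region chr3:130911530-130911712 had a score of 12, above 60.5%. Both open regions scored higher than most regions of like width (91.3% and 89.6% of them), while their TCF1 scores were near the middle of the TCF1 list.

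A higher TCF1 score was seen at chr3:130808787-130808987, an open region of 201 bp with a score of 15. This open region scored above 98.7% of the 12745 other regions of like width, whose median was 9. Its TCF1 region chr3:130808791-130808973 had a score of 25, above 95.9% of the TCF1 list, and lay wholly inside it. Of the 147 TCF1 regions with a score of 25 or more, 132 lay in an open region, and for 5 of them (3.40% of the 147) that open region had a score of 15 or less. Of DNaseI regions 201 bp wide, 0.785% carried TCF1. The score of 25 was taken from this region after its value was seen.

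A further TCF1 region 3.78 kb away, chr3:130812575-130812757 (score 10, above 31.2%), was the only factor region of either window outside the DNaseI list. It lay between open regions, 201 bp from one and 892 bp from the other. HEB without TCF1 was found once, at chr3:130757625-130757825 (score 17, above 80.1%). It lay at the edge of chr3:130757117-130757737 (score 39, 621 bp), with 113 of its 201 bp inside, and the nearest TCF1 centre was 40.4 kb away.

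Across both windows, HEB and TCF1 regions directly overlapped 4 times, which was 4 of 7 HEB regions (11.7% of the HEB list) and 4 of 12 TCF1 regions (16.3% of the TCF1 list). A centre of the other factor within 1 kb was found for 5 of 7 HEB regions, against 14.0% of the list, and for 6 of 12 TCF1 regions, against 19.6%. All 7 HEB scores and 10 of 12 TCF1 scores were above the median of 11 of their lists, which 41.6% of HEB and 39.5% of TCF1 regions are. The list shares count regions inside and outside open chromatin alike. In the lists 34.5% of HEB and 84.9% of TCF1 regions lay in an open region, against 7 of 7 and 11 of 12 here. No test was made of these counts, since the windows were chosen with the lists known.

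**Figure D4:**
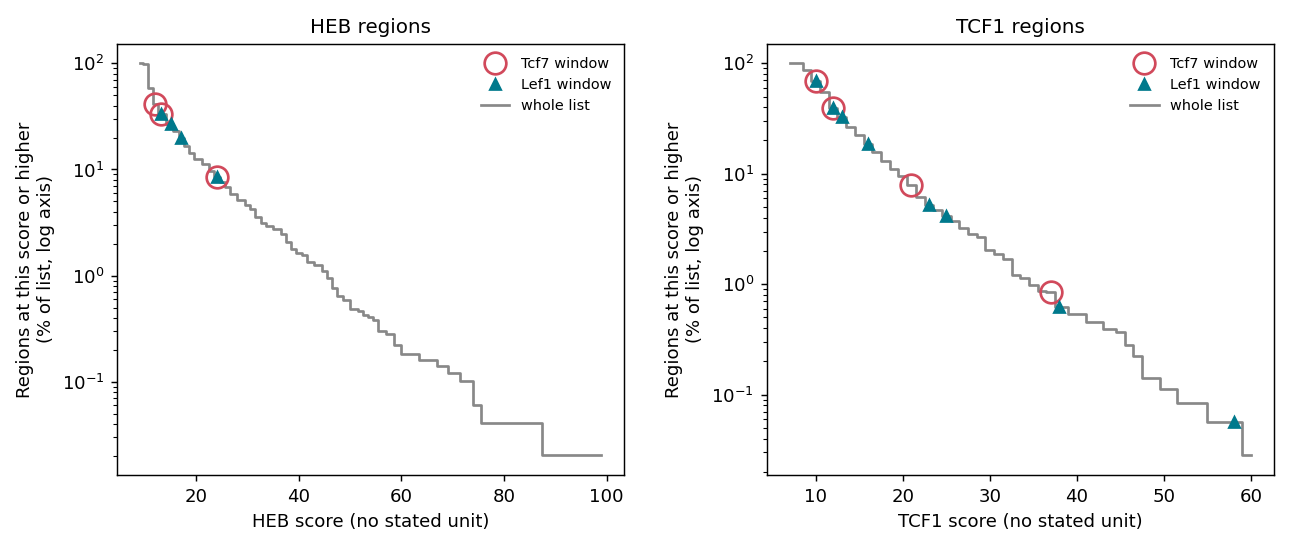
HEB (left) and TCF1 (right) scores of the regions in the Tcf7 window (open circles) and the Lef1 window (filled triangles), each placed at its score (x axis) and at the share of its list with that score or a higher one (y axis, log), with the whole list as a grey line. The HEB scores run from 12 to 24, and the TCF1 scores run from 10 to 58 and reach the second highest of the list.

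Open regions that carried a factor were wider and had higher scores than the others of the same windows. In the Tcf7 window the median score was 194 (34 to 871) with a factor and 16 (8 to 164) with neither, and median widths were 2336.5 and 337 bp. In the Lef1 window these scores were 129 (15 to 186) with a factor and 18 (8 to 147) with neither, and the widths were 1186 and 354 bp. The ranges overlapped in both windows. The medians with a factor rest on 4 regions in the Tcf7 window and 7 in the Lef1 window. In the whole list the median scores were 52 with a factor and 15 with neither, and the median widths 725 and 306 bp. An overlap of 1 bp is easier to reach in a wider region, and its part in this was not tested. Score followed width within each window (Spearman's rho 0.97 across the 48 regions of the Tcf7 window and 0.95 across the 56 of the Lef1 window, against 0.94 across the list, all regions of 1 library), so the 2 measures are not separate observations.

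Of open regions with a score of 100 or more, 3 of 9 in the Tcf7 window and 5 of 6 in the Lef1 window carried HEB or TCF1, against 51.6% of such regions in the list. Of those at least 2000 bp wide, 3 of 5 in the Tcf7 window and 1 of 2 in the Lef1 window did, against 58.4% of 305 in the list. The Tcf7 window thus held 6 open regions with scores from 100 to 164 on which neither factor was listed, and the Lef1 window held 1, with a score of 147.

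**Figure D5:**
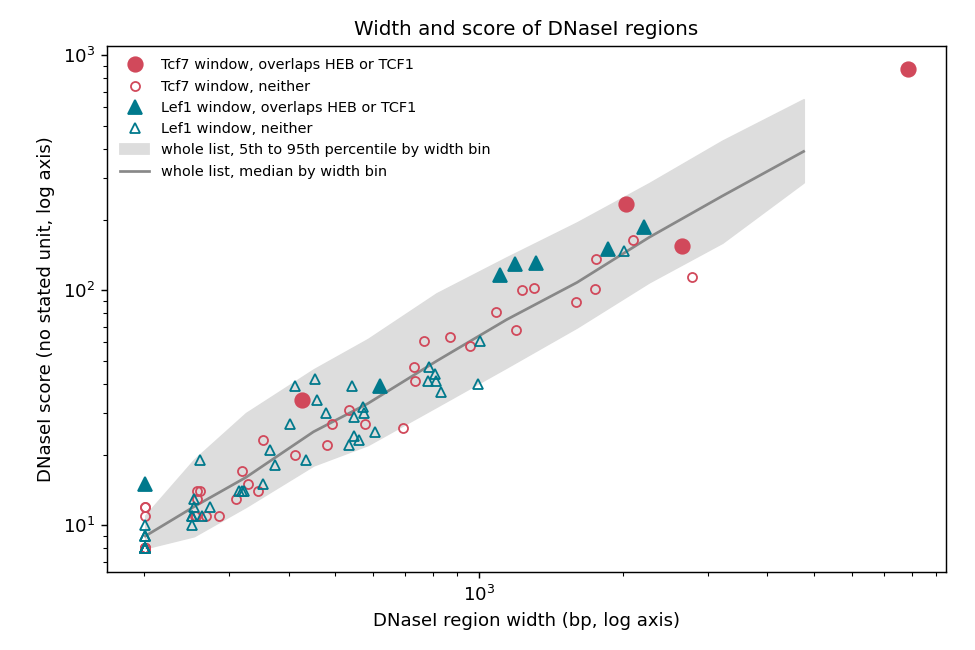
Width (x axis, log) and score (y axis, log) of each DNaseI region of the Tcf7 window (circles) and the Lef1 window (triangles), filled where it overlaps HEB or TCF1, with the median and the 5th to 95th percentile of the whole list by width bin in grey. Most regions follow the list, the widest region lies at 7846 bp with a score of 871, and a 2779 bp region with neither factor lies low at a score of 114.

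The window edges fell differently in the 2 loci. At the Tcf7 window, the nearest open region outside was 95.9 kb before the start and 1497 bp after the end, and the last member, chr11:52149059-52150015, crossed the end of the window. Factor regions went on past that end, with a HEB region (score 25) 2989 bp and a TCF1 region (score 24) 4647 bp beyond it. At the Lef1 window, the nearest HEB regions outside were 1437 kb before the start and 352 kb after the end, and the nearest TCF1 regions were 837 kb before and 1397 kb after. The first and last open regions inside the Lef1 window had scores of 8 and 41, and the nearest ones outside had 16 and 31.

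Windows with like counts were found elsewhere on the grids, by the smallest summed difference in the counts of the 3 lists. For the Tcf7 window (48 DNaseI, 3 HEB and 4 TCF1 regions) the closest was chr10:80950001-81070000 with 46, 3 and 2, and its coverage was 16.4%. The next were chr17:45670001-45790000 with 45, 2 and 1 (19.8%) and chr9:32470001-32590000 with 43, 1 and 4 (19%). These windows had similar numbers of open regions. A smaller share of their length was open, which was fixed in advance. No window of the grid had a higher coverage than the Tcf7 window, so nothing is read from this. For the Lef1 window (56, 4 and 8) they were chr6:125000001-125350000 with 56, 5 and 7, chr1:182050001-182400000 with 57, 4 and 6, and chr4:132350001-132700000 with 57, 3 and 5, with coverages of 9.73%, 7.29% and 9.23%. By TCF1 count, 5 of the 7368 windows of 350 kb held more than the 8 of the Lef1 window.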

How the data were processed

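Region lists of the DNaseI, HEB and TCF1 samples, 1 each, were used as deposited. The score deposited by the authors with each region's position is a whole number without a stated unit. The submitters' processing notes name HOMER 6.1 and mm9 without a role. The aligner, thresholds, controls and depth, not given in the sources used here, stay unknown. Per the labels' protocols, the libraries were sequenced on a SOLiD instrument.

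Positions are counted from 1. Overlap means at least 1 bp. Scores were ranked within their own list, as the percent of the list with a lower score, and like width means within 10%. Equal windows tiled each chromosome in phase with the locus window, over the span that the lists occupy, with gaps in the assembly unmasked. Shares carry 95% Wilson intervals from statsmodels 0.14.6, for counting error only. With 1 sample per assay and windows chosen with earlier results of these data known, no test was made. Members and lists were chosen with those results known.

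The regions named were every HEB and TCF1 region of the windows, every open region with one, and the 5 highest-scoring open regions of each window. Any other is said to be chosen later or is a neighbour, run or edge. Promoter sequences came from RefSeq (GRCm38.p6), which matched both symbols, and motifs were searched on both strands (CANNTG is its own reverse complement). Overlap and window code was tested on simulated lists. Python 3.11.15, numpy 2.4.6, pandas 2.3.3 and matplotlib 3.10.9 were used.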

Additional observations from a re-analysis of the deposited data

How the results depend on the processing

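Of 30 alternatives over the counts and coverages of both windows, 22 left a count within 1.5 times the value reported. The DNaseI counts moved by more than that with scores above the list median alone, to 26 regions in the Tcf7 window, against 48, and 31 in the Lef1 window, against 56. Coverage moved by less than 1.5 times but beyond the 95% Wilson interval of the covered bases under each alternative tried. That interval counts adjoining bases as independent, so it is too narrow to judge these changes, and nothing is read from it. With scores above the list median it was 29.7% for Tcf7, against 34.1%, and 6.99% for Lef1, against 8.68%. With 20 kb taken off each end of the window, coverage was 41.9% for Tcf7 and 8.15% for Lef1, and with 20 kb added it was 30.4% and 8.20%. The counts of HEB and TCF1 regions and of open regions with a factor stayed within 1.5 times under each alternative tried, and the largest change was in TCF1 regions of the widened Tcf7 window, 6 against 4. Allowing a gap of up to 500 bp made 8 open regions with a factor in the Lef1 window, against 7. No paired analysis was possible because each assay has 1 sample. Depth is unknown, so a region missing from a list cannot be told apart from one below the calling threshold, and the score has no stated unit.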
